A study of Mus musculus with 24 samples.

Results

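The genes described here are 45 mouse genes that drive or mark cell division: 15 for origin licensing and the replication fork, 3 for nucleotide supply, 5 regulators of the G1 to S transition, 19 for G2 and mitosis, and 3 inhibitors of cyclin-dependent kinases (CDKs). They were chosen by gene symbol, with 1 array probe set per gene, the brightest over 24 arrays where a gene had more than 1. A probe set with only the member's symbol was found for 44 of the 45, of 23410 named probe sets tested. Ccnb1, a cyclin of mitosis, was not analysed here, which leaves 18 mitosis genes. The 15 fork and 3 nucleotide genes are together called the 18 replication genes below.

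A dividing cell commits to a new cycle in G1, when D-type cyclins and then E-type cyclins, with their CDK partners, inactivate the retinoblastoma protein and free E2F transcription factors. E2F factors switch on the genes that license origins, copy DNA and make nucleotides, and expression of this group peaks around the G1 to S transition. A second wave of genes, transcribed through the factors B-MYB and FOXM1, follows in G2 and serves the spindle, the kinetochore and cytokinesis. In the embryonic brain both waves mark progenitors, and neurons leave the cycle as they differentiate.

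RNA came from primary neural stem cell cultures of C57Bl/6 mouse embryos at embryonic day 14, started from the cortex or from the midbrain (mesencephalon) and grown in expansion medium. Cultures were kept for 48 h or 13 d, either at 21% O2 or in a gas mix with 3% O2 and the balance nitrogen and carbon dioxide. Region, time and oxygen define 8 groups of 3 arrays. The label gives 1 well of a 6-well plate as the source of RNA and names no separate cultures or animals for the 3 arrays of a group, so the p-values rest on array-to-array spread that could be purely technical. These are mixed cultures measured in bulk, and fewer dividing cells and less of a transcript per dividing cell cannot be told apart.

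Levels are log2 array values as deposited, so 1 unit is a doubling. Array medians lay between 7.35 and 7.42, and pairs of arrays within a group correlated at 0.988 to 0.999. The words rose and fell are kept for genes with a Benjamini-Hochberg adjusted p from limma under 0.05 over all 23410 probe sets. Changes are given ± their standard error, with 3 arrays per group. The median probe set averaged 7.79 over the 24 arrays, and 1 member, Cdc6, lay below it. The 6 midbrain 13 d arrays were run 1 and the other 18 run 2 per the labels, so midbrain 13 d levels and the run cannot be told apart, and no test set them against another group.

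The culture labels were set against marker genes. At 21% O2, a mean of 8 neuron markers such as Tubb3 and Dcx was 11.85 ± 0.04 (SD, n = 3) in midbrain 48 h and 8.12 ± 0.07 in midbrain 13 d. In cortex the order was opposite, 9.22 ± 0.17 in the arrays labelled 48 h and 11.49 ± 0.05 in those labelled 13 d. Tbr1, a transcription factor of cortical neurons, was at 11.44 in cortex labelled 13 d at 21% O2 but at 6.86 in cortex labelled 48 h, near its levels in midbrain (6.12 and 6.19). En2, a midbrain factor, was at 7.67 in cortex labelled 48 h, against 6.03 in cortex labelled 13 d and 9.90 in midbrain 48 h. These markers leave the cortex culture times in doubt, and also the cortex origin of the arrays labelled 48 h. Both are named below only as labelled. The progenitor markers Sox2 and Nes were at 10.57 and 10.01 in midbrain 48 h at 21% O2, their lowest groups at that oxygen level.

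Promoters are shown for 4 members because they led the calls of the replication and mitosis genes. Mcm3 and Rrm2 are the replication genes with the smallest p for oxygen in midbrain 13 d, and Ccnb2 and Cenpa the mitosis genes with the smallest p between the cortex times. Each window runs from 250 bases before to 50 bases after the gene start in RefSeq (GRCm38.p6), 5′ to 3′ on the gene's strand. Capitals mark 3 kinds of motif on either strand: the E2F motif (TTTGGCGC, TTTCGCGC, TTTCCCGC or TTTGCCGC), the CCAAT box, and the cell cycle homology region, or CHR (TTTGAA).
Mcm3 (chr1:20820263-20820562, minus strand): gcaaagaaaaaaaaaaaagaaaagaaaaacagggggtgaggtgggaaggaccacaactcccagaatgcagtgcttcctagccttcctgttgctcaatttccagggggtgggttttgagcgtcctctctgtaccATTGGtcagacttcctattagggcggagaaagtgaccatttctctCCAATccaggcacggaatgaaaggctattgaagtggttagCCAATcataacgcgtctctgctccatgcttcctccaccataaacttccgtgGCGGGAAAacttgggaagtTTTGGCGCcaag
Rrm2 (chr12:24708004-24708303, plus strand): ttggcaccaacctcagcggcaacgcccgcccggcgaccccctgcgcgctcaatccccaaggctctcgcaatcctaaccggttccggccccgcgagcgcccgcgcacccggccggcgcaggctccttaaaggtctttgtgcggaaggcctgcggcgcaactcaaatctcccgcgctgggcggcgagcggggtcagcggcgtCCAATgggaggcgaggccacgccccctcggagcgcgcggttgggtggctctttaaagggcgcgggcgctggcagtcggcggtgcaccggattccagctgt
Ccnb2 (chr9:70421505-70421804, minus strand): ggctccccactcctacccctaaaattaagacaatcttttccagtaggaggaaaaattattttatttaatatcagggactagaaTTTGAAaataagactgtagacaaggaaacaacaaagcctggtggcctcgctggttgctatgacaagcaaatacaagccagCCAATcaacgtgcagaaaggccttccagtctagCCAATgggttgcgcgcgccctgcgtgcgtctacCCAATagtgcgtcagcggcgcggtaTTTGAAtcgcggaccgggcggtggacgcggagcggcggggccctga
Cenpa (chr5:30666636-30666935, plus strand): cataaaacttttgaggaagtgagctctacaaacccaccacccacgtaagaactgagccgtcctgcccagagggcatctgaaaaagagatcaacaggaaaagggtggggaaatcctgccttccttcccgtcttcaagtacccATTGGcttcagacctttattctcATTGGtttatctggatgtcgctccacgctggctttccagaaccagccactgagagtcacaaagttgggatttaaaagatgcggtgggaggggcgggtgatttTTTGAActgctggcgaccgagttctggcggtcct
The Mcm3 window held 3 CCAAT boxes and 2 E2F motifs, while that of Rrm2 held 1 CCAAT box and neither of the other motifs. The Ccnb2 window held 3 CCAAT boxes and 2 CHR motifs, and that of Cenpa 2 CCAAT boxes and 1 CHR motif. Among 17 RefSeq promoters of 15 replication genes, 47.1% held an E2F motif and 17.6% a CHR motif. Among promoters of 14 mitosis genes, Ccnb1 included, 7.14% held an E2F motif and 71.4% a CHR motif. The shares in all 32851 promoters of full length in the table were 2.26% and 17.9%. CCAAT boxes were in 70.6% of the replication, 92.9% of the mitosis and 37.4% of all promoters. E2F motifs can overlap each other, and a match to these letters is not evidence of a bound site.

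**Figure D1:**
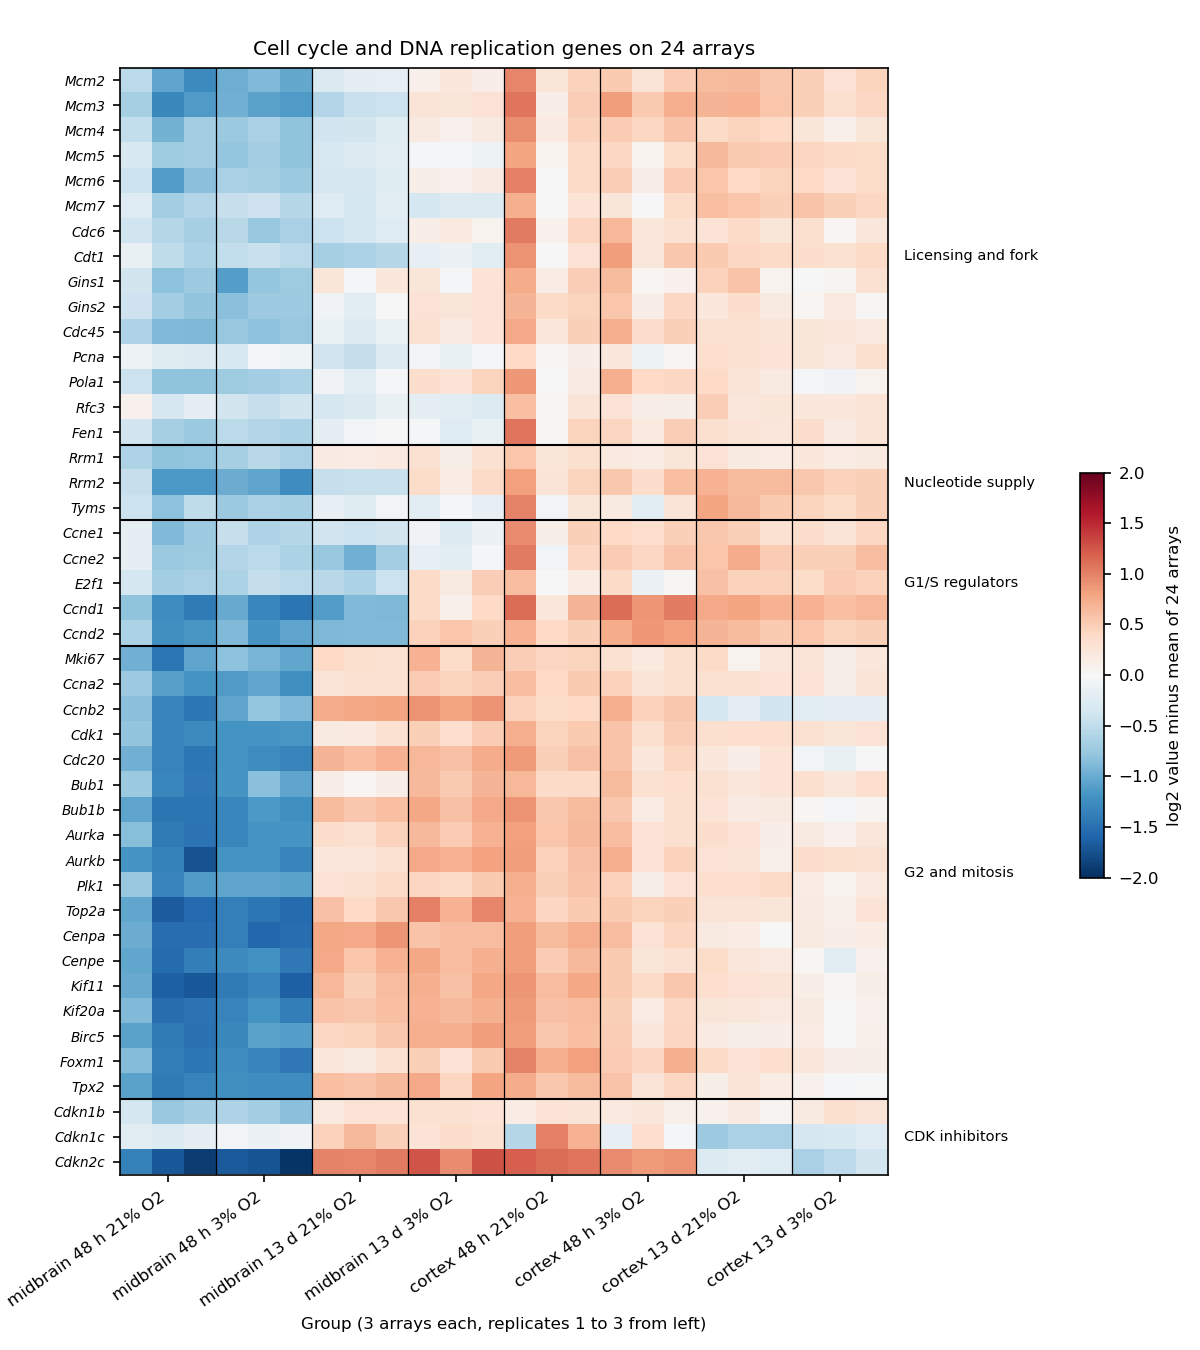
Each row is 1 gene, grouped by role, and each column 1 array, with 3 arrays per group in replicate order. Colour is the log2 value minus the gene's mean over 24 arrays, from -2 (blue) to 2 (red). The midbrain 48 h columns are blue across nearly all rows, and midbrain 13 d is pale for replication genes at 21% O2 and red for mitosis genes.

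Across the 8 groups, the division genes were lowest in midbrain 48 h. Of the 44 members, 40 had their lowest group mean in 1 of the 2 midbrain 48 h groups. The exceptions were Cdt1, Pcna and Ccne2, lowest in midbrain 13 d at 21% O2, and Cdkn1c, lowest in cortex labelled 13 d at 21% O2. In midbrain 48 h the 18 mitosis genes averaged 8.96 ± 0.28 (log2, SD, n = 3) at 21% O2 and 8.99 ± 0.05 at 3% O2. In the other 6 groups it lay between 10.33 ± 0.06 and 10.85 ± 0.09. The 18 replication genes averaged 8.81 ± 0.22 and 8.76 ± 0.02 in midbrain 48 h and between 9.21 ± 0.06 and 9.88 ± 0.36 elsewhere.

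The top of the order differed between the roles. Of 18 mitosis genes, 11 had their highest mean in midbrain 13 d at 3% O2, 6 in cortex labelled 48 h at 21% O2 and 1 in midbrain 13 d at 21% O2. All 18 replication genes had their highest mean in a cortex group, 7 of them in cortex labelled 13 d at 21% O2 and 7 in cortex labelled 48 h at 21% O2. The replication mean minus the mitosis mean was -1.47 ± 0.03 and -1.34 ± 0.06 in midbrain 13 d at 21% and 3% O2. It was -0.95 ± 0.23 and -0.82 ± 0.04 in cortex labelled 48 h, -0.56 ± 0.03 and -0.60 ± 0.01 in cortex labelled 13 d, and -0.15 ± 0.07 and -0.24 ± 0.03 in midbrain 48 h. Only the shift of this difference between groups can be read, since levels of different probe sets are not comparable. Midbrain 13 d, all of run 1, had the most negative values.

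Within midbrain, the roles were also spread differently between 48 h and 13 d, in levels that were not tested because time and array run cannot be told apart. At 21% O2 the median gene was 1.82 higher at 13 d among mitosis genes, 0.48 among replication genes and 0.12 among G1/S regulators. At 3% O2 the same medians were 1.90, 0.84 and 0.90. Top2a, for example, was at 9.49, 8.87 and 8.98 in midbrain 48 h at 21% O2 and at 11.11, 10.93 and 11.06 in midbrain 13 d. Ccnd1 was at 11.11, 10.68 and 10.51 and then at 10.80, 11.03 and 11.01. The Top2a groups are far apart and the Ccnd1 groups overlap.

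The 3 inhibitors differed in their order across the groups. Cdkn2c had the widest range of group means of all members, from 7.01 ± 0.15 in midbrain 48 h at 3% O2 to 9.96 ± 0.18 in midbrain 13 d at 3% O2, with cortex at 9.69 and 9.93 (labelled 48 h) and at 8.28 and 8.55 (labelled 13 d). Cdkn1c ranged only from 8.48 ± 0.06 in cortex labelled 13 d at 21% O2 to 9.68 ± 0.10 in midbrain 13 d at 21% O2. Cdkn1b lay between 10.21 and 10.32 in midbrain 48 h and between 11.02 and 11.21 in the other 6 groups. Cdkn2c thus lay low where mitosis genes were low, a description over 8 groups of mixed cells.

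**Figure D2:**
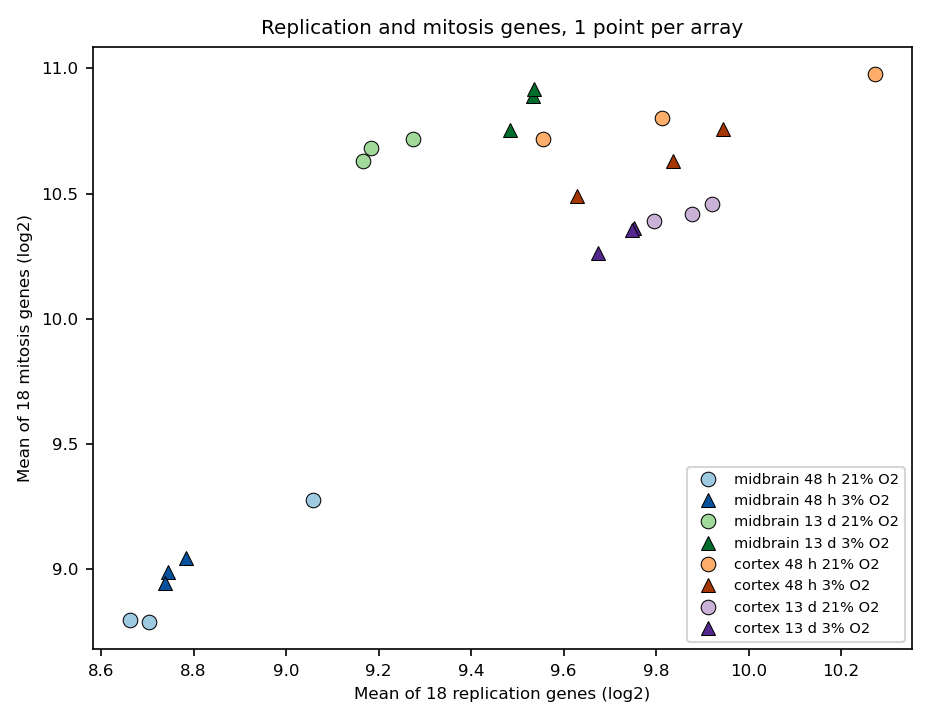
Each point is 1 array, with the mean log2 value of 18 replication genes on the x axis and of 18 mitosis genes on the y axis. Circles are 21% O2 and triangles 3% O2. Midbrain 48 h arrays reach no higher than 9.28 on the y axis, midbrain 13 d arrays lie left of all cortex arrays, and 1 array of cortex labelled 48 h at 21% O2 stands at 10.27 on the x axis.

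Replicate 1 stood apart in 2 of the groups. In cortex labelled 48 h at 21% O2 it was the highest of the 3 arrays for 42 of 44 members, including all 18 replication and all 18 mitosis genes. Its replication mean was 10.27, against 9.55 and 9.81 in replicates 2 and 3. In midbrain 48 h at 21% O2 replicate 1 was the highest for 43 of 44 members, with a replication mean of 9.06 against 8.66 and 8.70. Results that use these groups are given below without those arrays where that changes them. Each standard error is pooled over all 24 arrays and is too small for genes that spread more widely than that in these 2 groups. The median SD of replication genes was 0.37 in this cortex group and 0.22 in this midbrain group. That of mitosis genes was 0.13 and 0.29.

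The first comparison asks whether low oxygen changed the division genes in short-term midbrain culture. No member passed, against 1.19% of all probe sets (0.701% higher and 0.491% lower), while 6 of 6 check genes of the hypoxia response, such as Slc16a3 and Pdk1, rose. Limma gave 3 members an unadjusted p under 0.05: Ccnb2, Mki67 and Rfc3. Member changes ranged from -0.25 to 0.30 with a median of -0.02, which is also the median of all probe sets to 2 decimals. Mki67, the proliferation marker, was at 10.37, 10.26 and 10.15 at 3% O2 and at 10.22, 9.74 and 10.13 at 21% O2. These arrays overlap (0.23 ± 0.10, adjusted p = 0.316). Ccnb2, the B2 cyclin, was at 10.08, 10.37 and 10.25 against 10.31, 9.80 and 9.70, again with overlap through replicate 1 at 21% O2. Its change of 0.30 ± 0.11 (adjusted p = 0.204) passed without that array (1 called member) and with array weights. For 1 member all 3 low-oxygen arrays lay above the others and for 1 below, against 7.84% and 10.9% of all probe sets.

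In midbrain 13 d, 17 of 44 members were higher at 3% O2 and 0 lower. Of all probe sets 23.9% were called, 11.2% higher and 12.7% lower. The calls comprised 4 of 5 G1/S regulators, 8 of 15 fork genes, 1 of 3 nucleotide genes, 4 of 18 mitosis genes and 0 of 3 inhibitors. Median changes were 0.89 for G1/S regulators, 0.37 for the replication genes, 0.15 for the mitosis genes and -0.01 for all probe sets. Of the hypoxia check genes 5 of 6 rose, and Bnip3 did not pass (0.75 ± 0.30, adjusted p = 0.0816). The 3% and 21% O2 arrays did not overlap for 29 members, 27 of them higher at 3% O2 and 2 lower, against 18.5% and 22% of all probe sets.

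The D cyclins, which bind CDK4 and CDK6 to start the cycle in answer to growth signals, moved most. Ccnd2 was at 12.69, 12.78 and 12.70 in midbrain 13 d at 3% O2 and at 11.33, 11.35 and 11.35 at 21% O2. All 3 low-oxygen arrays lay far above the others, a 2.61-fold rise (1.38 ± 0.11, adjusted p = 4.12e-08). Ccnd1 was at 12.30, 12.03 and 12.32 against 10.80, 11.03 and 11.01. The groups do not overlap, and the rise was 2.41-fold (1.27 ± 0.17, adjusted p = 1.57e-05). Their means at 21% O2 in midbrain 48 h were 11.22 for Ccnd2 and 10.76 for Ccnd1. Cortex group means spanned 12.72 to 13.04 for Ccnd2 and 12.57 to 12.93 for Ccnd1. These levels, from the other array run, were not tested against midbrain 13 d.

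E2f1, an activating E2F factor, was at 9.30, 9.09 and 9.40 at 3% O2 and at 8.36, 8.28 and 8.48 at 21% O2. The groups are separate, with a 1.85-fold rise (0.89 ± 0.14, adjusted p = 6.16e-05). Ccne2, an E-type cyclin that acts with CDK2 at the start of S phase, was at 8.53, 8.46 and 8.65 against 7.93, 7.73 and 7.99 (0.66 ± 0.18, adjusted p = 0.0104). This call was lost without 21% O2 replicate 2 (0.58). The related Ccne1 was at 9.27, 9.07 and 9.23 against 8.94, 8.92 and 8.98. Its arrays did not overlap either, but the change of 0.25 ± 0.16 did not pass (adjusted p = 0.339).

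**Figure D3:**
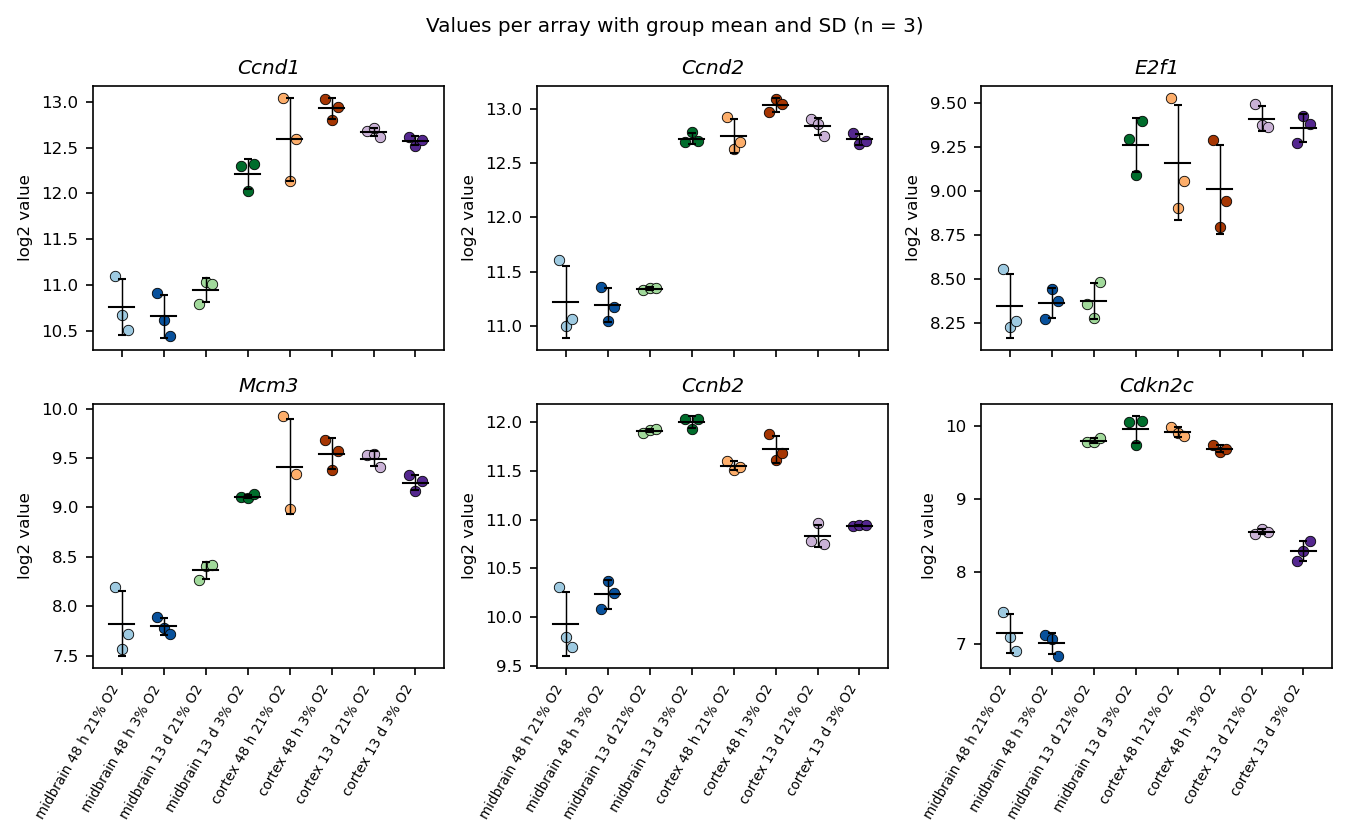
Points are single arrays, the bar is the group mean and the whisker the SD (n = 3), on a log2 axis that does not start at 0. In midbrain 13 d Ccnd1, Ccnd2, E2f1 and Mcm3 are separate between 21% and 3% O2, while Ccnb2 lies close together at 11.91 and 12.00 on average. Ccnb2 and Cdkn2c are lower in cortex labelled 13 d than in cortex labelled 48 h.

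Among the replication genes, the helicase subunits had changes from -0.03 to 0.75. The MCM2-7 ring, loaded at origins in G1, unwinds DNA at the fork. Mcm3 was at 9.10, 9.10 and 9.13 in midbrain 13 d at 3% O2 and at 8.27, 8.40 and 8.41 at 21% O2, with no overlap (0.75 ± 0.17, adjusted p = 0.002). Mcm4 rose by 0.47 ± 0.13 (adjusted p = 0.0101). Mcm2 was at 10.15, 10.25 and 10.18 against 9.75, 9.84 and 9.88, which are separate, but its 0.37 ± 0.15 did not pass (adjusted p = 0.0999). Changes of Mcm6, Mcm5 and Mcm7 were 0.43 ± 0.18, 0.22 ± 0.13 and -0.03 ± 0.13, none past the threshold. With the replicate number as a block, Mcm2 and Mcm6 were called higher (limma adjusted p = 0.0463 and 0.025). Mcm7 arrays overlapped (10.26, 10.33 and 10.33 against 10.35, 10.26 and 10.38). Mcm3 and Mcm7 were not compared with each other by a test.

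Loaders and activators of that helicase rose. Cdc6, which loads the ring, was at 7.69, 7.75 and 7.63 at 3% O2 against 7.14, 7.21 and 7.31 at 21% O2 (0.47 ± 0.16, adjusted p = 0.0337). Cdt1, its partner in loading, rose by 0.46 ± 0.17 (adjusted p = 0.0488), and both calls were lost in each of the 6 fits that left out 1 array. Cdc45 and Gins2, parts of the active helicase, rose by 0.44 ± 0.10 and 0.37 ± 0.10. The other GINS member, Gins1, was at 0.03 ± 0.18 and did not pass. Cdc45 kept its call in all 6 of those fits, and Gins2 lost it without 21% O2 replicate 2 (0.31).

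At the fork itself, Pcna, the sliding clamp, was at 12.08, 11.98 and 12.11 against 11.74, 11.65 and 11.86 (0.31 ± 0.09, adjusted p = 0.0191). A second Pcna probe set gave 0.30. Pola1, the catalytic subunit of the primase-associated polymerase, rose by 0.47 ± 0.15. Rfc3 of the clamp loader and Fen1, the flap nuclease, did not pass, at 0.03 ± 0.11 and -0.06 ± 0.16. Leaving out any of 3% O2 replicates 1 and 3 and 21% O2 replicates 1 and 2 ended the Pcna and Pola1 calls.

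The nucleotide genes split. Rrm2, the small subunit of ribonucleotide reductase that is made in S phase, was at 11.22, 11.00 and 11.24 at 3% O2 and at 10.40, 10.42 and 10.41 at 21% O2, with a 1.68-fold rise (0.75 ± 0.15, adjusted p = 0.000646). Rrm1, the large subunit, was at 0.08 ± 0.07, with a 95% interval of -0.07 to 0.23. Tyms, which makes thymidylate, was at 0.02 ± 0.18 and did not pass.

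Of the 18 mitosis genes 4 rose in midbrain 13 d. Aurkb, the chromosomal passenger kinase, was at 11.44, 11.37 and 11.48 at 3% O2 against 10.89, 10.91 and 10.97 at 21% O2 (0.51 ± 0.12, adjusted p = 0.00329). Bub1, a spindle checkpoint kinase, rose by 0.51 ± 0.13. Top2a, which untangles chromosomes, was at 11.54, 11.22 and 11.51 against 11.11, 10.93 and 11.06 (0.39 ± 0.12, adjusted p = 0.0182), and Birc5, survivin, rose by 0.29 ± 0.10. Leaving out 3% O2 replicate 1, 3% O2 replicate 3 or 21% O2 replicate 2 ended both of the last calls, and leaving out 21% O2 replicate 1 ended that of Birc5. A dim second Top2a probe set, at 5.13 on average, gave 0.04, and the call was lost when both were averaged (0.21).

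The other 14 mitosis genes did not pass in midbrain 13 d. Mki67 was at 11.88, 11.55 and 11.87 at 3% O2 against 11.58, 11.50 and 11.49, overlapping through replicate 2 (0.24 ± 0.10, adjusted p = 0.108). Plk1, a mitotic kinase, was at 11.54, 11.49 and 11.63 against 11.38, 11.42 and 11.49 (0.12 ± 0.10). Ccnb2 was at 0.09 ± 0.11 and Cdc20, an activator of the anaphase-promoting complex, at 0.00 ± 0.11. Cenpa, the centromeric histone H3 variant, had a negative value (-0.20 ± 0.11, adjusted p = 0.23). Its low-oxygen arrays all lay below the others (10.62, 10.67 and 10.66 against 10.82, 10.80 and 10.94).

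None of the 3 CDK inhibitors passed in midbrain 13 d. Cdkn1b (p27) was at 11.22, 11.23 and 11.18 at 3% O2 against 11.11, 11.21 and 11.19 (0.04 ± 0.08). Cdkn1c (p57) was at 9.42, 9.50 and 9.45 against 9.61, 9.80 and 9.63 (-0.22 ± 0.24, adjusted p = 0.626). Cdkn2c (p18) was at 10.06, 9.75 and 10.07 against 9.79, 9.78 and 9.84 (0.16 ± 0.11). The Cdkn1c arrays were separate, with low oxygen below, and the other 2 genes overlapped. The standard error pools all groups, and the SD of Cdkn1c was 0.84 in cortex labelled 48 h at 21% O2. In a fit of the 6 midbrain 13 d arrays alone Cdkn1c was called lower.

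Genes of the same pathway outside the 45 were counted from fixed lists. In midbrain 13 d, 11 of 31 other replication genes rose and 1 fell, led by Tk1 (0.68 ± 0.14), a thymidine salvage kinase, and Pold1 (0.55 ± 0.12), a replicative polymerase subunit. Of 30 other mitosis genes 10 rose and 0 fell, led by Ncaph (0.59 ± 0.12) of condensin and the cytokinesis gene Anln (0.60 ± 0.13). Of 22 other regulators 9 rose and 2 fell. Ccnd3, the remaining D cyclin, rose by 0.52 ± 0.06 and Ccng1, a p53 target, by 0.47 ± 0.07. Medians of the 3 lists were 0.23, 0.25 and 0.25. In midbrain 48 h Ccng1 went the other way and fell at 3% O2, by 0.61 (SE 0.07, limma adjusted p = 0.000111).

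Markers of other cells moved in the same arrays. A mean of 7 pericyte and fibroblast markers was 8.19 ± 0.19 in midbrain 13 d at 3% O2 (range 7.98 to 8.33) and 7.23 ± 0.04 at 21% O2 (7.21 to 7.28). Of these markers 4 rose, with Postn 2.33 ± 0.36 higher. Among 7 progenitor markers, Hes1 rose by 0.96 ± 0.20, while Hes5 and Pax6 fell by 1.50 (SE 0.23) and 0.53 (SE 0.13). Of 7 oligodendrocyte markers Cspg4 rose by 0.50 ± 0.10 and Gpr17 fell by 2.18 (SE 0.42). Of 8 neuron markers Stmn2 rose by 0.89 ± 0.18, while Map2 and Tubb3 fell by 0.29 (SE 0.04) and 0.66 (SE 0.20). Of 6 endothelial markers Emcn rose by 1.17 ± 0.31, and none of 6 astrocyte and 7 microglia markers passed. The part of these markers in the division gene result was not tested.

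Of the 17 calls in midbrain 13 d, 9 held in all 6 fits that left out 1 array: Ccnd1, Ccnd2, E2f1, Rrm2, Mcm3, Mcm4, Cdc45, Aurkb and Bub1. The count fell to 11 without 3% O2 replicate 1 or 3 and to 9 without 21% O2 replicate 2. Over those 6 fits, 18.9% to 23.1% of all probe sets were called. With the other groups left out of the fit the count was 26, with 24 higher and Cenpa and Cdkn1c lower, and it was 30 with array weights. Shares of all probe sets in these last fits are not given here, so the higher counts are not read as particular to the members.

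In the cortex arrays labelled 48 h, 1 member passed, against 12.3% of all probe sets, 6.25% higher and 6.08% lower. Of the hypoxia check genes 2 of 6 rose. Bub1b, a spindle checkpoint protein, was at 9.78, 9.38 and 9.55 at 3% O2 and at 10.14, 9.78 and 9.87 at 21% O2. All low-oxygen arrays lay below the others, though replicate 1 at 3% O2 only just below replicate 2 at 21% O2 (-0.36 ± 0.11, adjusted p = 0.0319). The call was lost when only those 6 arrays were fitted, and in 4 of the 6 fits that left out 1 array (3% O2 replicates 2 and 3, 21% O2 replicates 1 and 3).

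Most other mitosis genes had small negative values in these cortex arrays. Of 18 mitosis genes 17 had a negative change, with a median of -0.25 against 0.00 for all probe sets, and 11 had an unadjusted p under 0.05. The share of all probe sets at that unadjusted p was at least the 12.3% that passed the adjusted threshold. Its exact value is not given here. Plk1 was at 11.57, 11.23 and 11.40 at 3% O2 and 11.82, 11.59 and 11.68 at 21% O2 (-0.30 ± 0.10, adjusted p = 0.0616). Ccnb2 was the exception, at 0.17 ± 0.11. The replication genes had a median of -0.12 and 0 of 18 passed, with 1 at an unadjusted p under 0.05. Ccnd2 was at 12.97, 13.10 and 13.05 against 12.93, 12.63 and 12.70, all low-oxygen arrays higher, without passing (0.29 ± 0.11, adjusted p = 0.115).

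The calls in this comparison changed with the arrays used. Without replicate 1 at 21% O2, 4 members were called, Pola1, Ccnd1 and Ccnd2 higher and Cdkn1c lower. Over the 6 fits that left out 1 array, 7.37% to 18% of all probe sets were called. Without the number 1 arrays of both oxygen levels 4 were also called, Pola1 and Ccnd2 higher and Bub1b and Cdkn1c lower. With array weights the count was 16, with 12 mitosis genes, all lower, among them. Shares of all probe sets without both number 1 arrays and with array weights are not given here. Those counts are not read as particular to the members. Cdkn1c was at 8.98, 9.48 and 9.10 at 3% O2 and at 8.58, 10.15 and 9.85 at 21% O2, with an SD of 0.84 at 21% O2, the highest of any member in any group. Neuron markers moved with this comparison, with 6 of 8 lower at 3% O2 and list means of 8.61 (8.44 to 8.74) and 9.22 (9.02 to 9.33), and their part was not tested. From the fixed lists, the centrosome kinase Nek2 and the passenger complex gene Incenp were among 3 of 30 other mitosis genes that fell, by 0.52 (SE 0.11) and 0.32 (SE 0.10).

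In the cortex arrays labelled 13 d, no member passed, against 0.607% of all probe sets (0.543% higher and 0.0641% lower). Limma gave 4 members an unadjusted p under 0.05, all with negative values: Cenpe, Cdc20, Cdkn2c and Plk1. The hypoxia check genes rose in 6 of 6 cases there, Slc16a3 from 7.61 to 11.93. All 18 replication genes and 5 G1/S regulators had slightly negative values, with medians of -0.14 and -0.10 against -0.01 for all probe sets. For 21 members all 3 low-oxygen arrays lay below the others, against 10.6% of all probe sets, and for 3 above, against 6.94%. Mcm2 was at 10.53, 10.33 and 10.49 at 3% O2 and 10.67, 10.69 and 10.58 at 21% O2 (-0.20 ± 0.15, adjusted p = 0.928). Rrm2 was at 11.40, 11.31 and 11.34 against 11.56, 11.49 and 11.49, the 2 groups just separate, with -0.16 ± 0.15 and an adjusted p of 0.963. Ccnd1 and Ccnd2 were at -0.10 ± 0.17 and -0.12 ± 0.11, with 95% intervals of -0.46 to 0.26 and -0.36 to 0.12. Those intervals exclude changes of the size seen in midbrain 13 d.

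Whether the oxygen response of the midbrain differed between 13 d and 48 h was tested directly, and 6 members differed, all more positive at 13 d, against 15.1% of probe sets in either direction, 6.86% more positive and 8.24% more negative. Ccnd2 responded by -0.03 ± 0.11 at 48 h and by 1.38 ± 0.11 at 13 d, a difference of 1.42 ± 0.16 (adjusted p = 9.01e-06). Ccnd1 differed by 1.37 ± 0.24, Rrm2 by 0.92 ± 0.21, E2f1 by 0.87 ± 0.19, Mcm3 by 0.78 ± 0.23 and Gins2 by 0.50 ± 0.15. E2f1, Rrm2, Ccnd1 and Ccnd2 kept this call in all 12 fits that left out 1 array. Mcm3 lost it in 6 of them and Gins2 in 4, with values down to 0.59 and 0.39 without replicate 1 of midbrain 48 h at 21% O2. Without that array Ccnb2 was called the other way, less positive at 13 d (-0.40, adjusted p = 0.0182, against -0.21 with it). Of the other 38 members 9 had an unadjusted p under 0.05. With the replicate number as a block, 12 members differed, adding Cdc6, Cdt1, Cdc45, Ccne2, Aurkb and Top2a. Same-numbered midbrain arrays deviated together, but replicate 1 of 13 d at 3% O2 correlated better with another number (0.16 against 0.12). The mitosis genes had 0 of 18 differing in the fit without the block, 2 at an unadjusted p under 0.05, with a median of 0.12 against 0.39 for replication genes and 0.01 for all probe sets. Because each time has its own array run, the difference removes a run effect only if that effect shifts 3% and 21% O2 arrays alike. In cortex, 0 of 44 members differed between the labelled times by limma, against 4.13% of all probe sets (1.91% more positive and 2.23% more negative), with 4 at an unadjusted p under 0.05. The count of members called was 4 without replicate 1 of the labelled 48 h arrays at 21% O2, with Mcm3, Pola1 and Ccnd1 lower and Cdkn1c higher. Over the 12 fits that left out 1 cortex array, 1.83% to 12.7% of all probe sets were called.

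Between the cortex arrays labelled 13 d and 48 h at 21% O2, mainly mitosis genes were called. Lower at labelled 13 d were 15 members, 13 of 18 mitosis genes and 2 of 3 inhibitors, and 0 were higher, against 37.2% of all probe sets, 20.4% lower and 16.8% higher. None of 18 replication genes and none of 5 G1/S regulators passed in limma's test, with 2 and 0 at an unadjusted p under 0.05. Median changes were -0.43 for mitosis genes, 0.01 for replication genes, 0.09 for G1/S regulators and -0.03 for all probe sets. All 3 arrays labelled 13 d lay below all 3 labelled 48 h for all 18 mitosis genes and 1 of 18 replication genes, against 26% of all probe sets, and no member lay the other way, against 18.8%.

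**Figure D4:**
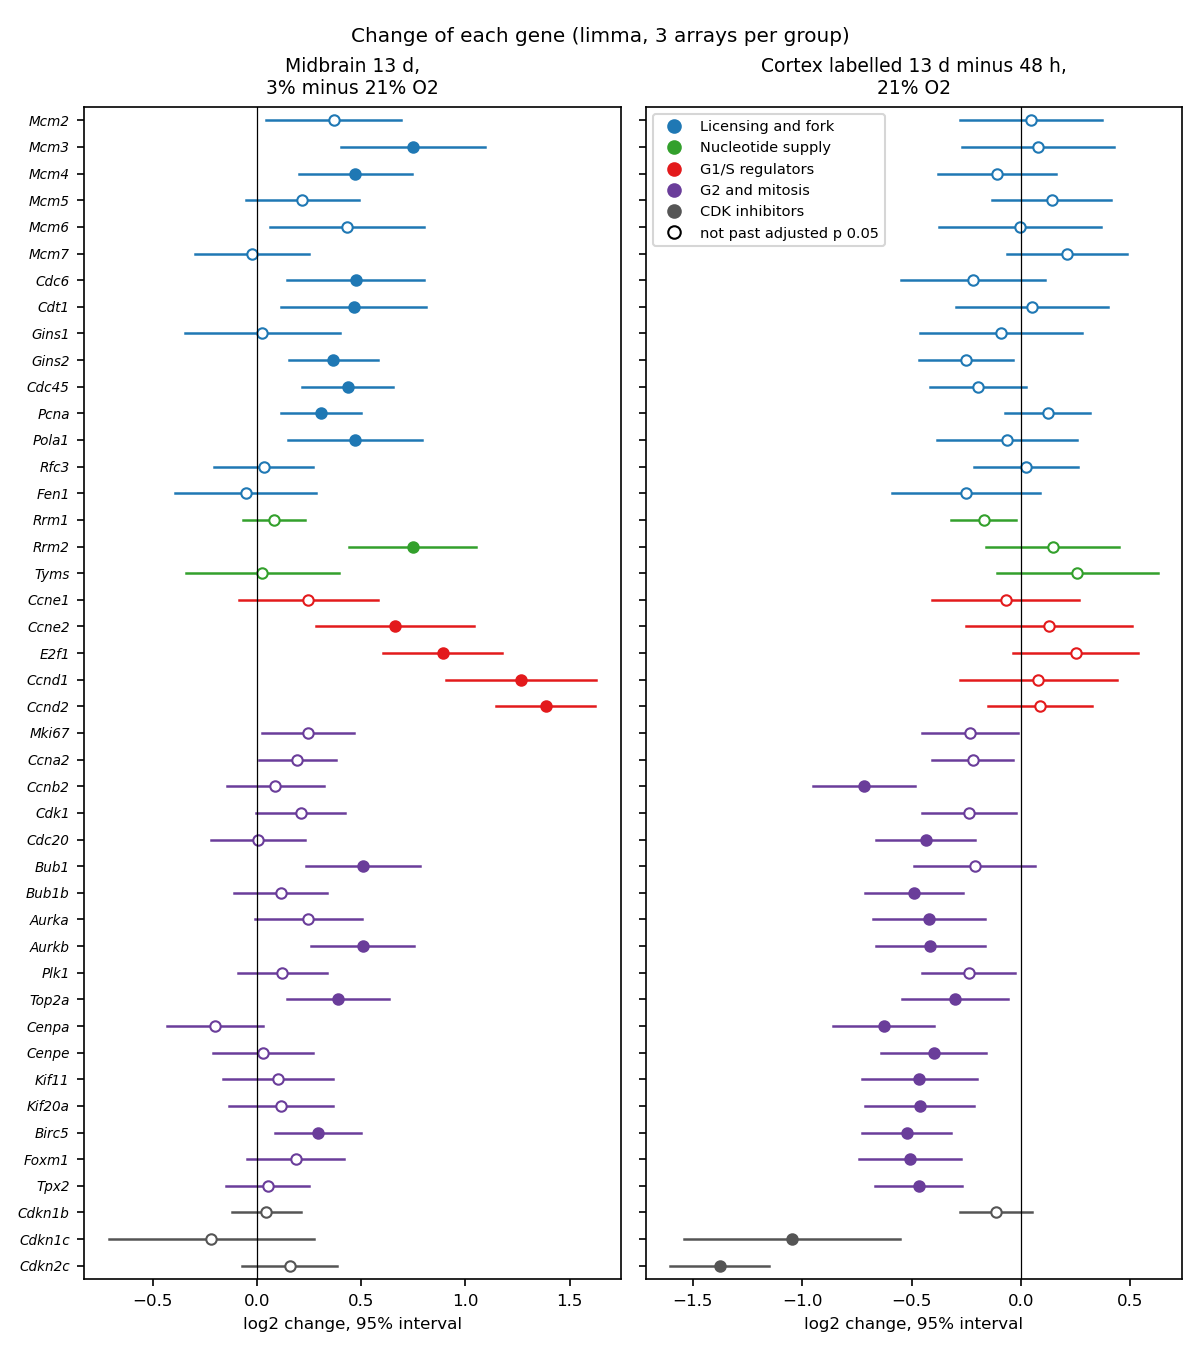
Points are log2 changes with 95% intervals for each gene, coloured by role, and filled where the adjusted p was under 0.05. The left panel is the oxygen response in midbrain 13 d, where filled points lie mainly among fork and G1/S genes. The right panel is cortex labelled 13 d minus 48 h at 21% O2, where 13 mitosis genes and 2 inhibitors are filled to the left of 0.

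Cdkn2c, which binds and blocks CDK4 and CDK6, fell most. It was at 8.52, 8.59 and 8.54 in cortex labelled 13 d and at 10.00, 9.91 and 9.87 in cortex labelled 48 h, with no overlap (-1.38 ± 0.11, adjusted p = 3.35e-09). Ccnb2 was at 10.79, 10.96 and 10.75 against 11.60, 11.51 and 11.54, the largest change among mitosis genes (-0.72 ± 0.11, adjusted p = 2.88e-05). Cenpa was at 10.23, 10.19 and 10.04 against 10.89, 10.69 and 10.77 (-0.63 ± 0.11, adjusted p = 0.000115). All of these arrays are separate. Birc5, Tpx2, a spindle assembly factor, and Foxm1, the G2 transcription factor, fell by 0.52 (SE 0.10), 0.47 (SE 0.10) and 0.51 (SE 0.11).

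Bub1b, Kif20a, Kif11, Cdc20, Aurka, Aurkb, Cenpe and Top2a fell by between 0.30 and 0.49. Kif11 and Kif20a are spindle and cytokinesis motors and Cenpe a kinetochore motor. Aurkb was at 10.97, 10.93 and 10.78 against 11.51, 11.14 and 11.27, and Top2a at 10.79, 10.79 and 10.77 against 11.23, 10.97 and 11.06. Of the 5 mitosis genes that did not pass, Ccna2, Cdk1, Plk1, Mki67 and Bub1, the changes lay between -0.24 and -0.21. Mki67 was at 11.57, 11.26 and 11.41 against 11.68, 11.61 and 11.63 (-0.23 ± 0.10, adjusted p = 0.0958). Cdkn1c fell by 1.05 (SE 0.24), from values of 8.58, 10.15 and 9.85 to 8.41, 8.52 and 8.50, a call lost in a fit of the compared arrays alone. The Top2a call was lost in 5 of the 6 fits that left out 1 array, those of Aurkb and Cenpe without replicate 1 of cortex labelled 48 h, and that of Aurka without replicate 3 of cortex labelled 13 d.

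None of the replication genes passed between these arrays, which does not show that their levels were unchanged. Some 95% intervals were wide, such as -0.11 to 0.62 for Tyms and -0.59 to 0.09 for Fen1. Mcm2 was at 10.67, 10.69 and 10.58 in cortex labelled 13 d and at 11.02, 10.28 and 10.51 in cortex labelled 48 h (0.05 ± 0.15, 95% interval -0.28 to 0.37). Mcm5 was at 10.78, 10.65 and 10.64 against 10.92, 10.20 and 10.52 (0.14 ± 0.13). Pcna was at 12.47, 12.44 and 12.40 against 12.53, 12.15 and 12.27 (0.12 ± 0.09). In each gene replicate 1 of cortex labelled 48 h lies above the arrays labelled 13 d and the other 2 below. Without both number 1 arrays of cortex labelled 48 h, Mcm5, Mcm7, Cdt1, Pcna and Tyms were called higher at labelled 13 d, as were Ccne2 and E2f1. The medians were then 0.21 for replication and -0.34 for mitosis genes, and 14 members were called lower. Without replicate 1 at 21% O2 alone, Mcm5, Mcm7, Tyms, Ccne2 and E2f1 were called higher. Without replicate 2 instead, the count was 22, all lower, with Cdc6, Gins2, Cdc45, Fen1 and Rrm1 among them. Over the 6 fits that left out 1 array, 32.2% to 37.1% of all probe sets were called. The share without both number 1 arrays is not given here.

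From the fixed lists, 22 of 30 other mitosis genes fell between the cortex times and 0 rose, led by Cdca3 (-0.87 ± 0.08) and Nusap1 (-1.03 ± 0.11), a spindle protein. Of 31 other replication genes 6 fell and 1 rose, with Rfc1, the large clamp loader subunit, at -0.44 ± 0.09 and Orc4, an origin recognition subunit, at 0.32 ± 0.07. Of 22 other regulators 11 fell and 2 rose, with Ccng1 and Cdkn2a, the locus of p16 and p19ARF, lower by -1.01 ± 0.07 and -1.50 ± 0.12. Cell type markers moved with these genes: 8 of 8 neuron markers were higher at labelled 13 d, and 7 of 7 oligodendrocyte, 6 of 6 astrocyte and 4 of 7 progenitor markers lower. The progenitor mean was 11.00 (10.98 to 11.01) against 11.58 (11.57 to 11.60). Their part in the division gene result was not tested.

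The 17 genes higher at 3% O2 in midbrain 13 d and the 15 lower in cortex labelled 13 d shared Aurkb, Birc5 and Top2a, 17.6% of the first list and 20% of the second. Of all probe sets, 20.4% were lower in that cortex comparison and 11.2% were higher at 3% O2 in midbrain 13 d. The overlap is not read as particular to these genes. These comparisons have no arrays in common, though they share 1 error estimate.

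At labelled 48 h and 21% O2, all 44 members were lower in midbrain than in cortex, against 54.8% of all probe sets called and 30.5% called lower. The mitosis genes had a median of -1.95 and the replication genes of -1.10, against -0.02 for all probe sets. Cdkn2c was at 7.44, 7.11 and 6.90 in midbrain against 10.00, 9.91 and 9.87 in cortex (-2.77 ± 0.11, adjusted p = 3.3e-14). Birc5 was at 7.80, 7.45 and 7.38 against 9.71, 9.41 and 9.48 (-1.99 ± 0.10), and Tpx2 at 8.86, 8.51 and 8.59 against 10.67, 10.46 and 10.56 (-1.91 ± 0.10). The smallest changes were those of Pcna (-0.38 ± 0.09) and Rfc3 (-0.44 ± 0.11). Pcna was at 12.04, 11.90 and 11.87 in midbrain against 12.53, 12.15 and 12.27 in cortex, which are separate. For 42 members all midbrain arrays lay below all cortex arrays, against 31.2% of all probe sets and 25.1% the other way, and Rfc3 and Cdkn1c overlapped. The calls of those 2 were lost in a fit of the compared arrays alone, and that of Cdkn1c in 5 of the 6 fits that left out 1 array.

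Since the markers of the cortex arrays cross the labelled times, midbrain 48 h was also set against cortex labelled 13 d at 21% O2, the cortex group with the nearer neuron marker mean. There 43 of 44 members were lower in midbrain, against 41.4% of all probe sets called and 21.9% called lower, so the direction did not depend on which cortex time was used. Cdkn1c was the exception, at 0.44 ± 0.24 and not past the threshold. All midbrain arrays lay below all cortex arrays for those 43 members, against 24.2% of all probe sets, and above them for Cdkn1c, against 23.3%. Medians were -1.46 for mitosis and -1.03 for replication genes, against 0.01 for all probe sets. Both comparisons with cortex use the same midbrain 48 h arrays, so they are not independent. Neuron markers were 8 of 8 higher and progenitor markers 7 of 7 lower in midbrain than in cortex at labelled 48 h, and 7 of 7 microglia markers were higher there (8.02 against 6.55 on average). Against cortex labelled 13 d, midbrain 48 h means were 11.85 against 11.49 for neuron and 10.26 against 11.00 for progenitor markers. Microglia marker means were 8.02 against 6.79. The part of these markers in either comparison was not tested.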

How the data were processed

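RNA was hybridised to 24 Affymetrix whole-transcript mouse arrays. The deposited table holds log2 values, which the authors normalized per the labels, with the method not given in the sources used here. Values run from 4.65 to 14.5. Of 28856 probe sets, 21789 have 1 gene symbol, 1621 several and 5446 none in the platform annotation, and the 23410 named ones were tested. Group means of 8 groups were fitted with limma 3.58.1 (R 4.3.3, lmFit and eBayes, 16 residual degrees of freedom), two-sided, with Benjamini-Hochberg adjustment at 0.05. Precision is limited by 3 arrays per group. Exact shares of all probe sets at an unadjusted p under 0.05 are not given here. Counts of members at that p are therefore not read as particular to the members.

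The members and lists were chosen with earlier results of these data known. Any member may be named. Values per array are given for a fixed panel and for the 3 called members with the smallest p in each direction, and from other lists the 2 members with the smallest p are named. Values beyond that rule were added after they were seen. Alternatives were a filter on dim probe sets, inclusion of unnamed ones, quantile normalization, median centring, trended and robust moderation, array weights, the mean of a gene's probe sets, the compared arrays only, the midbrain arrays only (added after the data were seen), a replicate block, and leaving out arrays. In midbrain, same-numbered arrays deviated together in all 3 pairs at both times (r from 0.12 to 0.42), a pairing that rests on the data alone. At 13 d, replicate 1 at 3% O2 correlated better with another number (0.16) than with its own (0.12). Promoters came from the RefSeq table for GRCm38.p6.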

Additional observations from a re-analysis of the deposited data

Results flagged for a closer look

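The oxygen response of 6 genes differed between midbrain 13 d and 48 h by limma's test of the difference itself, each more positive at 13 d, against 15.1% of all probe sets in either direction and 6.86% more positive. The differences on the log2 scale were 1.42 for Ccnd2, 1.37 for Ccnd1, 0.92 for Rrm2, 0.87 for E2f1, 0.78 for Mcm3 and 0.50 for Gins2, the last 2 with adjusted p-values of 0.0298 and 0.0246. The 13 d arrays form a run of their own, so a run effect on the size of the response cannot be told apart from time. Pericyte and fibroblast markers showed a difference of the same sign, with 3 of 7 past the threshold against the same 6.86%, and their part was not tested.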

How the results depend on the processing

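No value of the 44 members that passed the threshold, in the reported fit or under an alternative, changed sign between them. Of the members' values under alternatives that tested them, 6496 stayed on their side of the threshold, 67 lost it and 160 gained it, 57 of these with array weights. Array weights, which ranged from 0.225 to 5.05, gave more calls: 1 in midbrain 48 h, 30 in midbrain 13 d, 16 in cortex labelled 48 h, 2 in cortex labelled 13 d, 15 and 5 for the differences of responses in midbrain and cortex, and 26 between the cortex times. The compared arrays alone gave 26 in midbrain 13 d, 0 in cortex labelled 48 h, 1 in cortex labelled 13 d (Cdkn1c) and 13 for the midbrain difference. In cortex labelled 48 h the count was 4 among brighter probe sets, 5 after quantile normalization and 4 without both number 1 arrays, which gave 2 for the cortex difference. With the replicate number as a block, counts were 7 in cortex labelled 48 h, where same-numbered arrays deviated together in 2 of 3 pairs (r of 0.29, 0.42 and -0.04) and not every array correlated best with its own number, and 12 for the midbrain difference. The block left the other counts within 1.5 times. Leaving out 1 array gave 0 to 1 calls in midbrain 48 h, 9 to 16 in midbrain 13 d, 0 to 4 in cortex labelled 48 h, 4 to 8 for the midbrain and 0 to 4 for the cortex difference, and 13 to 22 between the cortex times. The causes of these shifts were not tested. Shares of all probe sets under most of these alternatives are not given here, so higher counts are not read as particular to the members. With 3 arrays per group, the smallest change called in midbrain 13 d was 0.29.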
